A study of Mus musculus with 6 samples.

Results

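The sirtuin family of mouse comprises the genes Sirt1 to Sirt7, and all 7 were found by symbol among the 24369 rows of the read-count table and passed the filter on low counts, in a set of 14124 tested genes. The RNA came from germinal vesicle (GV) mouse oocytes, which are arrested in meiotic prophase with an intact nucleus. The 6 libraries formed 3 groups of 2: untreated control oocytes, oocytes exposed to the azo dye Sudan I, and Sudan I oocytes with a melatonin rescue, melatonin being a pineal hormone with antioxidant activity. Oocytes given melatonin without the dye were not analysed here, and no source used here gives strain, age, dose, route or duration. Nor do the labels name the animals or pools behind each library, so the p-values cover only the spread between these samples, which may be technical. Throughout, the melatonin group is the one exposed to both.

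Sirtuins remove acetyl and other acyl groups from lysines and spend a molecule of NAD+ each time, which ties their activity to the NAD+ supply of the cell. SIRT1, SIRT6 and SIRT7 act mainly in the nucleus, SIRT2 mainly in the cytosol, and SIRT3, SIRT4 and SIRT5 in mitochondria. In oocytes the family is known for roles in spindle assembly, control of reactive oxygen species and chromatin state. A fully grown oocyte transcribes little, so that its transcripts are largely stored ones. How much of the RNA counted here was stored was not measured.

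Library totals ran from 20669373 to 26065453 counts, of which the sirtuins together held 5437 to 7455. Levels are given as CPM, a gene's counts scaled to a common library size, where the size is the sum over tested genes corrected by TMM. Oocyte markers such as Gdf9 and Zp3 were high in every library, all 13 on the list being tested, with a summed level of 26400 to 28970 CPM. Granulosa and cumulus markers, 15 of 16 tested, summed to 649.9 to 723.5 CPM, a sum held mostly by Serpine2, Nr5a2, Esr2 and Gata4 (means 281.8, 117.7, 97.1 and 69.24 CPM). The highest library was over 2-fold above the lowest for 8 of the 15, among them Inha (21.05 to 92.93 CPM) and Amh (5.237 to 21.67 CPM). Wt1 and Amh had log2 fold changes of -1.64 (SE 0.478) and -1.46 (SE 0.476) in Sudan I versus control, and Wt1 -1.71 (SE 0.48) in melatonin versus control, none called (edgeR adjusted p = 0.9999 and 0.9562). Markers of this list moved in both directions. Cyp19a1 (mean 16.03 against 12.62 CPM) and Esr2 (103.4 against 85.97 CPM) were higher in Sudan I than in control. The 8 theca and stroma markers summed to 2.026 to 3.894 CPM, each with a mean under 1 CPM. The 5 endothelial markers summed to 102.8 to 130.6 CPM, held by Pecam1 (mean 86.22 CPM), Tek (26.04 CPM) and Kdr (5.917 CPM), with Cdh5 and Emcn near 0. Blood and immune markers summed to 0.8566 to 1.504 CPM, with the globin genes Hbb-bs, Hba-a1 and Hba-a2 at 0 counts in all 6 libraries. In such bulk samples fewer cells of a type and less RNA per cell cannot be told apart.

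The sirtuin genes lie at separate places of the genome (GENCODE M21, build GRCm38, which may differ from the authors' build). The spans take in all annotated transcripts. Sirt1 is at chr10:63319005-63381704 and Sirt6 at chr10:81621785-81627797, both on the reverse strand. Sirt2 is at chr7:28766735-28788661 on the forward strand and Sirt3 at chr7:140863666-140882309 on the reverse strand. Sirt4 is at chr5:115478010-115484725 and Sirt7 at chr11:120618372-120625240, both on the reverse strand, and Sirt5 is at chr13:43365496-43395203 on the forward strand.

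Because stored oocyte messages are controlled through the ends of their 3′ tails, the last bases of 1 annotated coding transcript per member were read. All 7 held a polyadenylation signal, AATAAA or ATTAAA, in the last 40 bases, as did 69.2% of the 21816 coding genes with a transcript of at least 100 bases. A cytoplasmic polyadenylation element, searched as TTTTAT or TTTTAAT on the transcript strand in the last 100 bases, was found in Sirt1 and Sirt4, against 16.4% of coding genes. The 30 bases around the signal follow for each member, 5′ to 3′ in DNA letters from GENCODE M21, with the signal in capitals.
Sirt1: ttaaagtcttatATTAAAattgtcatttga
Sirt2: tattagaaacaaATTAAAaaacaaaacaaa
Sirt3: tttcttgcatgaAATAAActtagtataaaa
Sirt4: tattagccaaatAATAAAttatttttaata
Sirt5: cagaaaaagagaATTAAAaccctgaaagtt
Sirt6: agctcccaatgcAATAAAtacaaaatccct
Sirt7: tgagcaagtcttATTAAAcatctctcaatt
The element of Sirt4 lies after the signal, in the stretch shown. That of Sirt1 is not within its stretch, and its place relative to the signal is not given here. A match is a description of the letters and not a test of use in these oocytes.

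The promoter windows of Sirt1 and Sirt6 are shown as well, because Sirt1 was the member with the smallest p in any comparison and Sirt6 the one with an NRF1 motif. Windows run from 250 bases before to 50 after the start site (RefSeq, GRCm38.p6), printed 5′ to 3′ on the gene's strand with matched motifs in capitals. The Sirt1 window is chr10:63338986-63339285 and the Sirt6 window chr10:81627517-81627816, both on the reverse strand.
Sirt1: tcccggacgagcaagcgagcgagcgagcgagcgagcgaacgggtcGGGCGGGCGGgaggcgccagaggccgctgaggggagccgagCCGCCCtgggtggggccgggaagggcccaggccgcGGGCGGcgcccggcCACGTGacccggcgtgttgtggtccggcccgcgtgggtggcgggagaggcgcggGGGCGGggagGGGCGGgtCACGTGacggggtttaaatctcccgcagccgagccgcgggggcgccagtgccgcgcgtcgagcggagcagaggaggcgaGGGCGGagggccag
Sirt6: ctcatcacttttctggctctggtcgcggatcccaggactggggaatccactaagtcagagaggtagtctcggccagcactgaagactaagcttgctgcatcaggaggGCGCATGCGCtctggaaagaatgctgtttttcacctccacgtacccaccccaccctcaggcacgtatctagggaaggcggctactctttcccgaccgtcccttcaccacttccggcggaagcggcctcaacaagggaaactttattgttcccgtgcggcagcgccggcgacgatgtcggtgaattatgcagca
Both strands were searched for the TATA box as TATAAA. The box bound by NF-Y was searched as CCAAT and the GC box bound by SP1 as GGGCGG. An E-box was searched as CACGTG, a FOXO site as GTAAACA and a cAMP response element (CRE) as TGACGTCA. The NRF1 motif searched has the letters in capitals on the Sirt6 line. The Sirt1 window held 7 GC boxes and 2 matches to the E-box, which reads the same on both strands, the first pair of GC boxes sharing letters and no other motifs overlapping, and 79% of its bases were G or C, against a median of 52.7% over all 32851 windows. The GC box occurred in 4 of 7 first windows of members and in 35.66% of all windows, and the E-box in 1 of 7 and in 7.15%. The NRF1 motif occurred in 1 of 7 and in 0.97% of all windows, CCAAT in 2 of 7 and 37.41%. TATA box, FOXO and CRE letters were in 0 of 7 windows and in 13.62%, 3.65% and 1.79% of all windows. The percentages cover every window of a gene, whereas the counts for members take only the first. A second window of Sirt3, left out of these counts, held 4 GC boxes and 1 CCAAT. A second window of Sirt6, also left out, held 1 GC box.

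Per kilobase of exon, the nuclear sirtuins stood highest. Sirt1 averaged 17.43 CPM per kb ± 1.99 (SD, n = 6 libraries), Sirt7 16.55 ± 2.31 and Sirt6 13.73 ± 1.68. The others followed with Sirt4 at 6.21 ± 0.767, Sirt5 at 4.974 ± 0.434, Sirt2 at 3.525 ± 0.247 and Sirt3 at 0.7449 ± 0.154. The ranges of the 6 libraries were apart between Sirt6 and Sirt4, between Sirt5 and Sirt2 and between Sirt2 and Sirt3, and they overlapped between the other neighbours in this order. Among 13550 tested genes with a length, Sirt1 was at the 78.2 percentile of level per kb and Sirt3 at the 23.9 percentile. Sirt3, which encodes the main protein deacetylase of mitochondria, had the lowest level per kb of the family in all 6 libraries.

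The union of exons includes bases that only some transcripts carry, so the order was also taken per kilobase of the longest coding sequence. Sirt7 then stood first at 70.64 CPM per kb ± 9.87, apart from Sirt1 at 42.03 ± 4.79, with Sirt6 at 38.17 ± 4.66 overlapping Sirt1. Sirt5 stood above Sirt4 at 28.86 ± 2.52, Sirt2 and Sirt4 overlapped at 15.21 ± 1.07 and 14.91 ± 1.84, and Sirt3 was again last at 4.799 ± 0.993. On either length the 3 nuclear members held the top ranks and Sirt3 the bottom one.

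**Figure D1:**
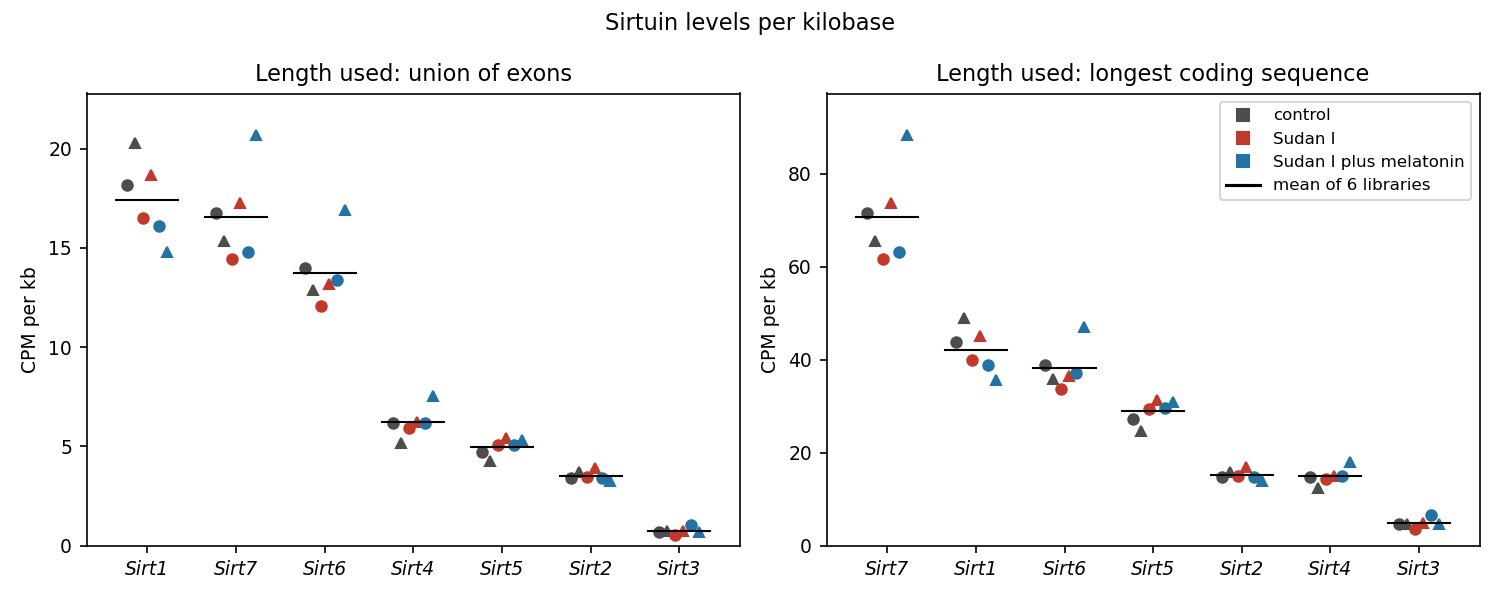
Level of each sirtuin per kilobase (y axis, CPM per kb) in the 6 libraries, ordered by mean, with length taken as the union of exons (left) or the longest coding sequence (right). Circles are library 1 and triangles library 2 of a group, colours are groups and bars are means of 6 libraries; Sirt1, Sirt7 and Sirt6 hold the top ranks in both panels and Sirt3 the lowest.

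The 3 comparisons of groups ask what Sudan I did to the oocyte, what melatonin did to exposed oocytes, and what still differed from control after melatonin. No sirtuin passed the threshold, an adjusted p under 0.05 over all 14124 genes in the edgeR quasi-likelihood test, in any of them (0 of 7 each). Over the whole table the test called 1 gene in Sudan I versus control (0.00708% of those tested), 0 in melatonin versus Sudan I (0%) and 1 in melatonin versus control (0.00708%). At an unadjusted p under 0.05 there were 0, 0 and 1 sirtuins, against 3.16%, 3.83% and 4.6% of all tested genes, while limma-voom and DESeq2 also left all 7 uncalled in each comparison. The 2 groups did not overlap for 1, 3 and 3 members, against 32%, 30.7% and 33.5% of tested genes. A test for any difference among the 3 groups called 0 of 7 as well (0.00708% of all genes), and 0 of 7 had an unadjusted p under 0.05 (3.47% of all genes), Sirt1 being nearest at 0.0634 (edgeR adjusted p = 0.9987).

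**Figure D2:**
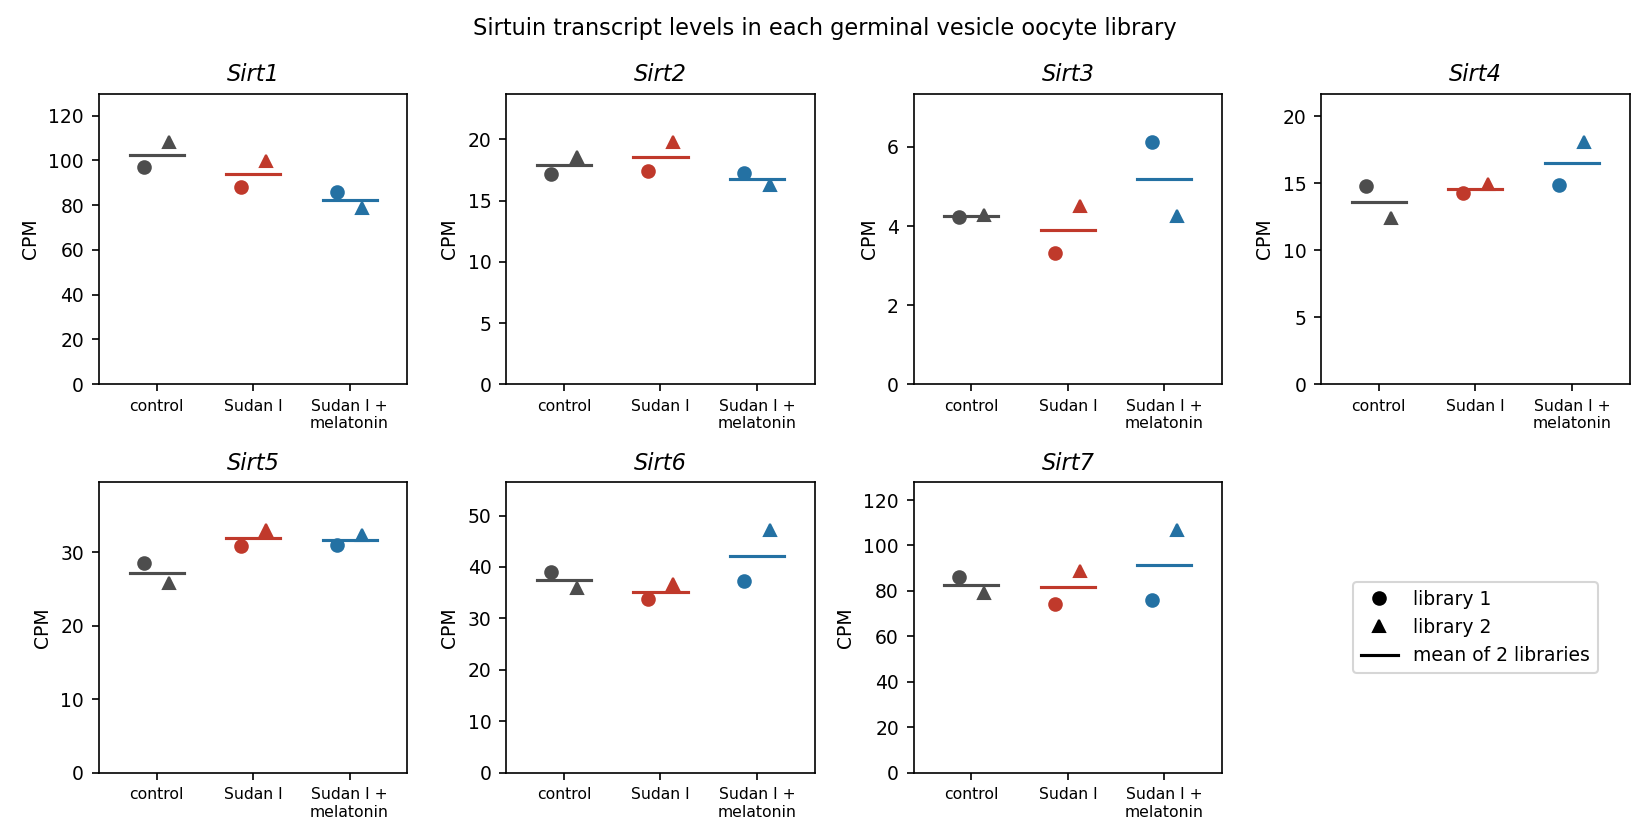
CPM of each sirtuin (y axis, starting at 0) in control, Sudan I and Sudan I plus melatonin oocytes, with circles for library 1, triangles for library 2 and bars for the mean of 2 libraries. Sirt1 has its lowest libraries in the melatonin group (85.96 and 78.85 CPM), and Sirt6 and Sirt7 have their highest value in melatonin library 2 (47.1 and 106.6 CPM).

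Sirt1 encodes the nuclear deacetylase that acts on p53, FOXO factors and histones. Its level was 96.82 and 108.2 CPM in control libraries 1 and 2, 88.14 and 99.55 CPM in Sudan I libraries 1 and 2, and 85.96 and 78.85 CPM in melatonin libraries 1 and 2. Both melatonin libraries were below all 4 others, while the Sudan I and control libraries overlapped. Both melatonin libraries lay below both control libraries in 17% of all tested genes, and below both Sudan I libraries in 15.9%.

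The log2 fold change of Sirt1 in melatonin versus control was -0.32 (SE 0.117, 95% interval -0.58 to -0.06), with an unadjusted p of 0.022 and an edgeR adjusted p of 0.9562, and 251 genes had a smaller p. It did not pass the threshold. In Sudan I versus control it was -0.13 (SE 0.117) and in melatonin versus Sudan I -0.19 (SE 0.117), with edgeR adjusted p of 0.9999 and 0.9943. The value against control stayed between -0.39 and -0.23 over the 14 alternatives tried, and its unadjusted p was 0.163 without control library 2 and 0.105 without melatonin library 2.

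Sirt6 encodes a chromatin deacetylase known for DNA repair and telomere maintenance. It stood at 38.98 and 35.82 CPM in the control libraries, 33.71 and 36.65 CPM in the Sudan I libraries and 37.2 and 47.1 CPM in the melatonin libraries. Melatonin library 2 was high and the other 5 libraries lay close together. The melatonin and Sudan I libraries did not overlap, as in 14.8% of tested genes in this direction, but melatonin library 1 (37.2 CPM) lay only just above Sudan I library 2 (36.65 CPM). The log2 fold change was 0.26 (SE 0.155, edgeR adjusted p = 0.9943) in melatonin versus Sudan I, -0.09 (SE 0.155) in Sudan I versus control and 0.17 (SE 0.155) in melatonin versus control. Without melatonin library 2 these melatonin values were 0.08 and -0.01, and without melatonin library 1 they were 0.43 and 0.34.

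Sirt7 encodes a nucleolar deacetylase that promotes transcription of ribosomal RNA genes. Its levels were 86.16 and 78.96 CPM in control, 74.45 and 88.82 CPM in Sudan I and 76.13 and 106.6 CPM in melatonin libraries 1 and 2. The groups overlapped in every comparison. Its log2 fold changes were -0.02 (SE 0.161) in Sudan I versus control, 0.16 (SE 0.161) in melatonin versus Sudan I and 0.15 (SE 0.161) in melatonin versus control. Without melatonin library 2 those melatonin values became -0.10 and -0.12, so 1 library set their sign. Without melatonin library 1 they were 0.39 and 0.37.

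Sirt2 encodes the cytosolic tubulin deacetylase. It was the steadiest member, with 17.14 and 18.6 CPM in control, 17.38 and 19.79 CPM in Sudan I and 17.29 and 16.28 CPM in melatonin libraries 1 and 2, a coefficient of variation of 7.02% over the 6 libraries. Control and Sudan I overlapped, whereas both melatonin libraries lay just below both Sudan I libraries. The log2 fold changes were 0.06 (SE 0.169) in Sudan I versus control, -0.15 (SE 0.17) in melatonin versus Sudan I and -0.09 (SE 0.17) in melatonin versus control.

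Sirt5 encodes the mitochondrial enzyme that removes succinyl and malonyl groups. Its levels were 28.63 and 25.87 CPM in control, 30.9 and 33 CPM in Sudan I and 31.02 and 32.41 CPM in melatonin libraries 1 and 2. All 4 exposed libraries were above both control libraries, as held for Sudan I in 16.1% and for melatonin in 16.5% of tested genes. The log2 fold change from control was 0.23 (SE 0.144, edgeR adjusted p = 0.9999) in Sudan I and 0.22 (SE 0.144, edgeR adjusted p = 0.9562) in melatonin oocytes, comparisons that share the control libraries. Between the exposed groups it was -0.01 (SE 0.144, 95% interval -0.33 to 0.31).

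Sirt4 encodes a mitochondrial sirtuin with lipoamidase and ADP-ribosyltransferase activity. It stood at 14.82 and 12.38 CPM in control, 14.24 and 14.97 CPM in Sudan I and 14.87 and 18.08 CPM in melatonin libraries 1 and 2. Both melatonin libraries were above both control libraries by a small margin, and the Sudan I libraries overlapped both other groups. Its log2 fold changes were 0.10 (SE 0.192) in Sudan I versus control, 0.18 (SE 0.191) in melatonin versus Sudan I and 0.28 (SE 0.191, edgeR adjusted p = 0.9562) in melatonin versus control. Without melatonin library 2 the melatonin values were 0.028 and 0.13, and without melatonin library 1 they were 0.31 and 0.42.

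Sirt3 rested on the fewest counts, 79 to 124 per library. Its levels were 4.239 and 4.268 CPM in control, 3.308 and 4.509 CPM in Sudan I and 6.126 and 4.245 CPM in melatonin libraries 1 and 2. The groups overlapped in every comparison, and melatonin library 1 alone stood high. The log2 fold changes were -0.12 (SE 0.308), 0.41 (SE 0.307) and 0.28 (SE 0.306) in the 3 comparisons in the order above, and the second had a 95% interval of -0.28 to 1.09. Without melatonin library 1 the melatonin values were 0.12 against Sudan I and 0.00141 against control, and without melatonin library 2 they were 0.65 and 0.53. The interval against Sudan I was the 1 interval among the 21 of the family that reached past 1 log2 unit from 0. In the 3 comparisons 7, 6 and 7 members had intervals within 1 log2 unit of 0, as did 69.9%, 70.1% and 68.9% of tested genes.

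**Figure D3:**
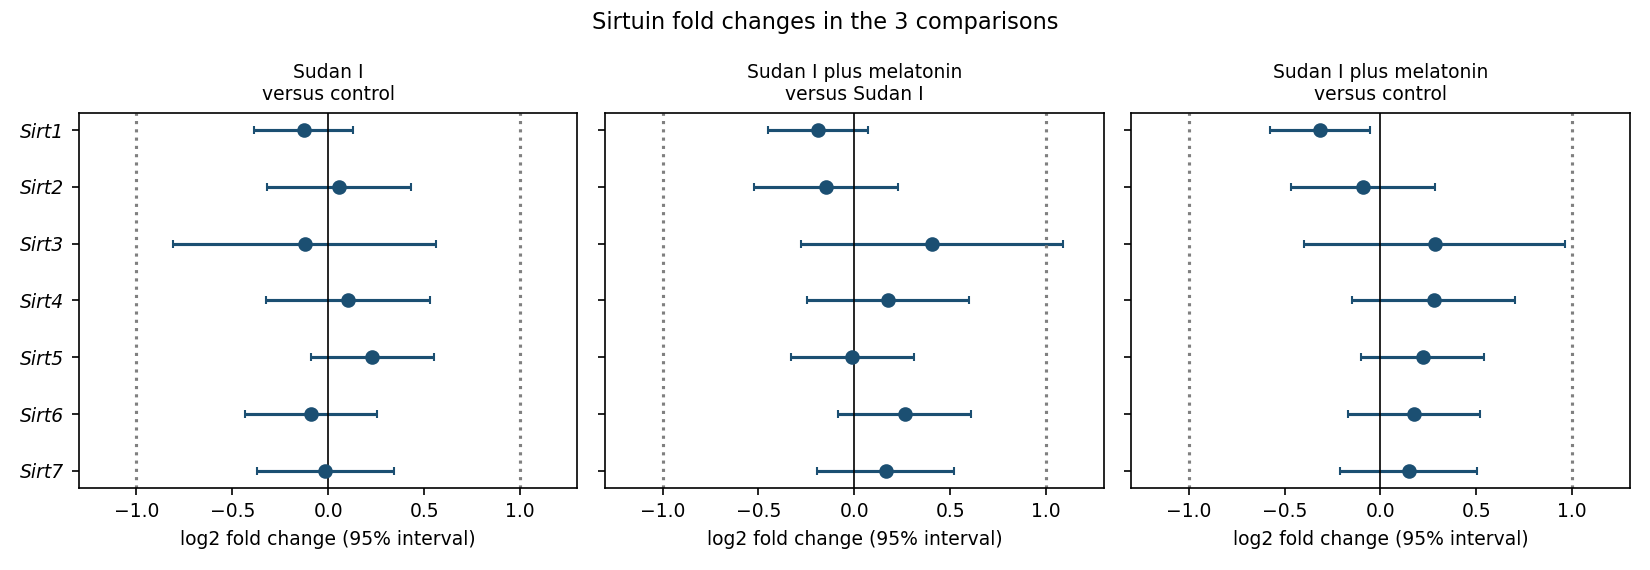
Log2 fold changes of the sirtuins (x axis) with 95% intervals from the edgeR fit in the 3 comparisons; dotted lines mark 1 log2 unit in either direction. Sirt1 in melatonin versus control (-0.32) is the 1 value whose unadjusted interval leaves out 0, and Sirt3 has the widest intervals.

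In sum over the family, transcripts of the 7 genes amounted to 286.8 and 284.1 CPM in control, 262.1 and 297.3 CPM in Sudan I and 268.6 and 303.6 CPM in melatonin libraries 1 and 2, with overlap of all groups. The median log2 fold change of the members was -0.02, 0.16 and 0.17 in the 3 comparisons, beside -0.0024, -0.006 and -0.0051 over all tested genes. The last 2 comparisons share the melatonin libraries. Positive values numbered 3, 4 and 5 of 7, and 49.4%, 48.8% and 48.9% of all tested genes were positive. Without melatonin library 2 the medians of the last 2 comparisons were -0.0407 and -0.00633, with 3 positive members in each. Without melatonin library 1 they were 0.12 and 0.255, with 5 positive members in each. In Sudan I versus control the median was 0.11 without Sudan I library 1 and -0.15 without Sudan I library 2.

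Melatonin library 2 was the highest of the 6 libraries for Sirt4, Sirt6 and Sirt7 and the lowest for Sirt1 and Sirt2. Over all tested genes it was the highest for 23.2% and the lowest for 21.8%, against 10.4% to 19.4% and 11.6% to 19.2% for the other libraries. The ratio of Sirt7 to Sirt1 counts was 1.35 in it and 0.73 to 0.892 in the others. Against melatonin library 1 it had 1.4-fold as much Sirt7 and 1.27-fold as much Sirt6. In the same library pair, the 2330 genes of at least 5 CPM with exons under 2.99 kb had a median log2 ratio of 0.13 and the 2327 with exons over 7.33 kb had -0.15. The Sudan I pair had 0.0729 and -0.0865 for the same classes, and the control pair -0.0272 and 0.0169. Sirt6 and Sirt4 have exon unions of 2.785 and 2.398 kb, and Sirt1 and Sirt7 of 5.331 and 5.148 kb. With a correction for transcript length, chosen after seeing the data, Sirt7 and Sirt6 in melatonin versus Sudan I were 0.18 and 0.25, and Sirt1 in melatonin versus control was -0.29. Granulosa markers summed to 723.5 CPM in melatonin library 2 and 673.3 CPM in melatonin library 1. Of the 15 tested, 10 were higher and 5 lower in library 2 than in library 1, and 5 were over 2-fold higher. Amh was 4.14-fold higher (21.67 against 5.237 CPM), Fst 3.44-fold, Inha 3.34-fold (92.93 against 27.81 CPM), Hsd17b1 3.17-fold and Amhr2 2.36-fold. The part of granulosa RNA in the sirtuin values, here and in the other comparisons, was not tested. 

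Genes that lie over or next to a sirtuin can share its reads, and without a stated strand reads of overlapping genes cannot be told apart. Exons of Psmd13, a proteasome subunit gene that starts head to head with Sirt3, cover 342 bases of Sirt3 exons (5.7%). Exons of Ric8a, which was not analysed here, cover 418 bases (7.0%). Those of Mafg cover 124 bases of Sirt7 (2.4%) and those of Nfkbib 42 bases of Sirt2 (0.8%). Psmd13 stood at 9.436 and 12.27 CPM in control, 8.793 and 11.18 CPM in Sudan I and 7.114 and 11.35 CPM in melatonin libraries 1 and 2, lowest in the library in which Sirt3 was highest. Nfkbib, an inhibitor of NF-kB, averaged 63.78 CPM ± 6.75 and Mafg, a small MAF transcription factor gene, 27.57 ± 3.14 (SD, n = 6). Their log2 fold changes were 0.05 (SE 0.15) and -0.14 (SE 0.176) in Sudan I versus control, and 0 of the 3 genes passed the threshold. Of the other neighbours within 1 kb, Ankrd24 beside Sirt6 averaged 5.332 CPM ± 1.01 and Pcyt2 beside Sirt7 3.349 ± 0.56. Dnajc12 beside Sirt1 and Rinl beside Sirt2 averaged 0.0848 and 0.124 CPM, and Mir6936, which lies over 54 bases of Sirt7 exons, had 0 counts. The antisense gene Gm16145 covers 65 bases of Sirt1 exons and was not analysed here. Sirt4 and Sirt5 have no annotated neighbour within 1 kb.

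As a description of likeness, each sirtuin of at least 5 CPM was set against the tested genes of at least 20 CPM by Pearson's r of log2 CPM over the 6 libraries. With 6 points and 6693 or 6694 genes, high values arise for many genes: between 72 and 236 genes had r over 0.9 with a given sirtuin. The closest were Zfp612 (r = 0.9918) and Naa20 (0.9895) for Sirt1, Ptger4 (0.9839) and 2810403A07Rik (0.9789) for Sirt2, and Rtfdc1 (0.9975) and Fam131a (0.9962) for Sirt4. For Sirt5 they were Mrpl35 (0.9929) and Cisd2 (0.9878), for Sirt6 Fance (0.9921) and Gfer (0.9916), and for Sirt7 Snd1 (0.9946) and Ebpl (0.9944). Within the family the highest value was 0.914 for Sirt6 and Sirt7 and the lowest -0.83 for Sirt1 and Sirt4, all over the same 6 libraries.

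Genes of NAD+ synthesis and salvage, with the NAD kinases and an NAD+ carrier, were read from a list of 20, of which 15 were tested. NAD+ is the co-substrate of every sirtuin. None of the tested genes was called in the 3 comparisons by edgeR (0 of 15, with 0 below 0.05 before adjustment), DESeq2 or limma-voom, with medians of 0.07, -0.14 and -0.02. Nampt, the rate-limiting enzyme of the salvage route, had 21.33 and 21.87 CPM in control, 30.9 and 22 CPM in Sudan I and 22.53 and 23.96 CPM in melatonin libraries 1 and 2. Its high value came from Sudan I library 1 alone, and its log2 fold change there was 0.29 (SE 0.183, edgeR adjusted p = 0.9999). Nadk2, the mitochondrial NAD kinase, had -0.39 (SE 0.189, edgeR adjusted p = 0.9562) in melatonin versus control, with 21.24 and 22.37 CPM in control against 14.33 and 18.94 CPM. Pnp, a purine nucleoside phosphorylase of the same route, had 0.24 (SE 0.186) there, and Nmnat1, a nuclear adenylyltransferase of NAD+ synthesis, stood at 3.32 CPM over the 6 libraries with -0.12 (SE 0.328). Of the kynurenine route genes on the list, Afmid, the formamidase gene, averaged 12.91 CPM ± 1.02 (SD, n = 6), and Ido2, Kynu and Tdo2 averaged 1.511, 1.418 and 1.406 CPM. Ido1, Haao and Qprt had 0 counts in all 6 libraries and Kmo 1 count in all.

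Other enzymes that spend NAD+ were read from a list of 19, of which 14 were tested. The list also held Nnmt, a nicotinamide methyltransferase gene that does not spend NAD+ and was not tested. In each comparison 0 of 14 were called by edgeR, DESeq2 and limma-voom. At an unadjusted p under 0.05 in edgeR there were 0, 1 and 0, where all tested genes had 3.16%, 3.83% and 4.6%. Parp1, the DNA-damage poly(ADP-ribose) polymerase, had 107 and 105.5 CPM in control, 98.99 and 102.4 CPM in Sudan I and 93.77 and 100 CPM in melatonin libraries 1 and 2. Its log2 fold change in Sudan I versus control was -0.08 (SE 0.102). Tnks2, a tankyrase, had 77.76 and 80.39 CPM in Sudan I and 68.67 and 63.42 CPM in melatonin oocytes, a value of -0.26 (SE 0.113, edgeR adjusted p = 0.9943). Parp4 had -0.34 (SE 0.179) in melatonin versus control and Parp11 -0.55 (SE 0.334) in Sudan I versus control, neither called. Cd38, an NAD+ glycohydrolase of immune cells, had 0 counts in all 6 libraries.

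Of 6 regulators of SIRT1, 0 were called and 0 had an unadjusted p under 0.05 in any comparison, with 0 by DESeq2 and limma-voom. Ccar2, whose product inhibits SIRT1, had -0.26 (SE 0.265) in Sudan I versus control, and Rps19bp1, whose product activates it, -0.02 (SE 0.156). Usp22, a deubiquitinase that stabilises SIRT1, had -0.29 (SE 0.189) in melatonin versus control, and E2f1, a cell-cycle transcription factor, 0.15 (SE 0.105) in melatonin versus Sudan I.

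Substrates and partners of the nuclear sirtuins had 17 of 18 tested, 0 called by edgeR, DESeq2 or limma-voom, and 0, 0 and 1 at an unadjusted p under 0.05 (all tested genes 3.16%, 3.83% and 4.6%). Foxo3, a transcription factor that keeps primordial follicles dormant, had 294.1 and 296.4 CPM in control, 321.6 and 270 CPM in Sudan I and 351.5 and 253.2 CPM in melatonin libraries 1 and 2, with overlap of all groups. Trp53, the p53 gene, had log2 fold changes of 0.01 to 0.04 (SE 0.154). Smarca5, a chromatin remodeller recruited by SIRT6, had 67.47 and 61.73 CPM in control and 48.86 and 55.14 CPM in melatonin oocytes, a value of -0.31 (SE 0.126, edgeR adjusted p = 0.9562). Suv39h1 had 0.20 (SE 0.129) in melatonin versus Sudan I and Foxo4 -0.62 (SE 0.401) in melatonin versus control, without a call. Only RNA was counted, so sirtuin action on the proteins of this and the following substrate lists was not measured.

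Cytosolic substrates of SIRT2 had 10 of 11 tested and 0 called by edgeR, DESeq2 or limma-voom, with 1, 0 and 0 at an unadjusted p under 0.05, against 3.16%, 3.83% and 4.6% of tested genes. Bub1b, the spindle checkpoint kinase BubR1 that SIRT2 stabilises, had 1536 and 1363 CPM in control, 1610 and 1796 CPM in Sudan I and 1642 and 1608 CPM in melatonin libraries 1 and 2. All 4 exposed libraries were above the control libraries, as held for Sudan I in 16.1% and for melatonin in 16.5% of tested genes. Both comparisons share the control libraries. The log2 fold change of Bub1b in Sudan I versus control was 0.23 (SE 0.103, edgeR adjusted p = 0.9999). The tubulin genes Tuba4a and Tuba1b had 0.15 (SE 0.0924) in melatonin versus Sudan I and -0.18 (SE 0.124) in Sudan I versus control. Atat1, which acetylates the tubulin lysine that SIRT2 and HDAC6 clear, had 0.03, 0.01 and 0.04 (SE 0.174) in the 3 comparisons.

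Mitochondrial substrates had 18 of 20 tested and 0 called by edgeR, DESeq2 or limma-voom, with 2, 0 and 2 lower and 0 higher at an unadjusted p under 0.05, beside 3.16%, 3.83% and 4.6% of all tested genes in either direction. Cps1, the urea-cycle enzyme deacylated by SIRT5, was among them. Cps1 had 1.231 and 0.9908 CPM in control and 0 to 0.4058 CPM in the exposed libraries, too few counts for a firm value.

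Sod2, the mitochondrial superoxide dismutase that SIRT3 activates, had 24.89 and 24.35 CPM in control, 23.41 and 19.88 CPM in Sudan I and 23.57 and 25.96 CPM in melatonin libraries 1 and 2. The Sudan I libraries were below both other groups by small margins, with log2 fold changes of -0.19 (SE 0.158) against control and 0.19 (SE 0.158) for melatonin over Sudan I. Idh2, the mitochondrial NADP+ isocitrate dehydrogenase and another SIRT3 substrate, had 3.054 and 2.744 CPM, 1.968 and 1.668 CPM, and 2.273 and 3.959 CPM in the same order, with -0.67 (SE 0.386) and 0.78 (SE 0.386). Neither gene passed the threshold (edgeR adjusted p = 0.9999 against control and 0.9943 for melatonin over Sudan I), and the 2 comparisons share the Sudan I libraries. Both Sudan I libraries lay below both control libraries in 15.9% of tested genes, and both melatonin libraries above both Sudan I libraries in 14.8%. The whole list of mitochondrial substrates did not share this course: 11 were positive and 7 negative in Sudan I versus control, and 9 and 9 in melatonin versus Sudan I.

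The zinc-dependent histone deacetylases, which remove acetyl groups without NAD+, were all tested (11 of 11) with 0 called by edgeR, DESeq2 or limma-voom and 0 at an unadjusted p under 0.05. Hdac2 had log2 fold changes of 0.06, -0.09 and -0.04 (SE 0.103) in the 3 comparisons and Hdac6 -0.15, 0.11 and -0.04 (SE 0.148, 0.148 and 0.147), while Hdac1 stood at 1.921 CPM over the 6 libraries. Hdac8 had 0.37 (SE 0.183) in melatonin versus Sudan I, and Hdac9 0.41 (SE 0.245) and Hdac11 -0.53 (SE 0.435) in Sudan I versus control. Of 13 lysine acetyltransferases, which add the marks, 0 were called by edgeR, DESeq2 or limma-voom and 0, 1 and 0 had an unadjusted p under 0.05 (3.16%, 3.83% and 4.6% of all tested genes). Hat1, the cytosolic acetyltransferase of new histones, had 77.88 and 88.82 CPM in Sudan I and 72.28 and 65.83 CPM in melatonin oocytes, a value of -0.27 (SE 0.121, edgeR adjusted p = 0.9943). Kat6a had -0.27 (SE 0.204) in Sudan I versus control and Kat2b -1.28 (SE 0.802) in melatonin versus control at a mean of 0.5372 CPM.

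**Figure D4:**
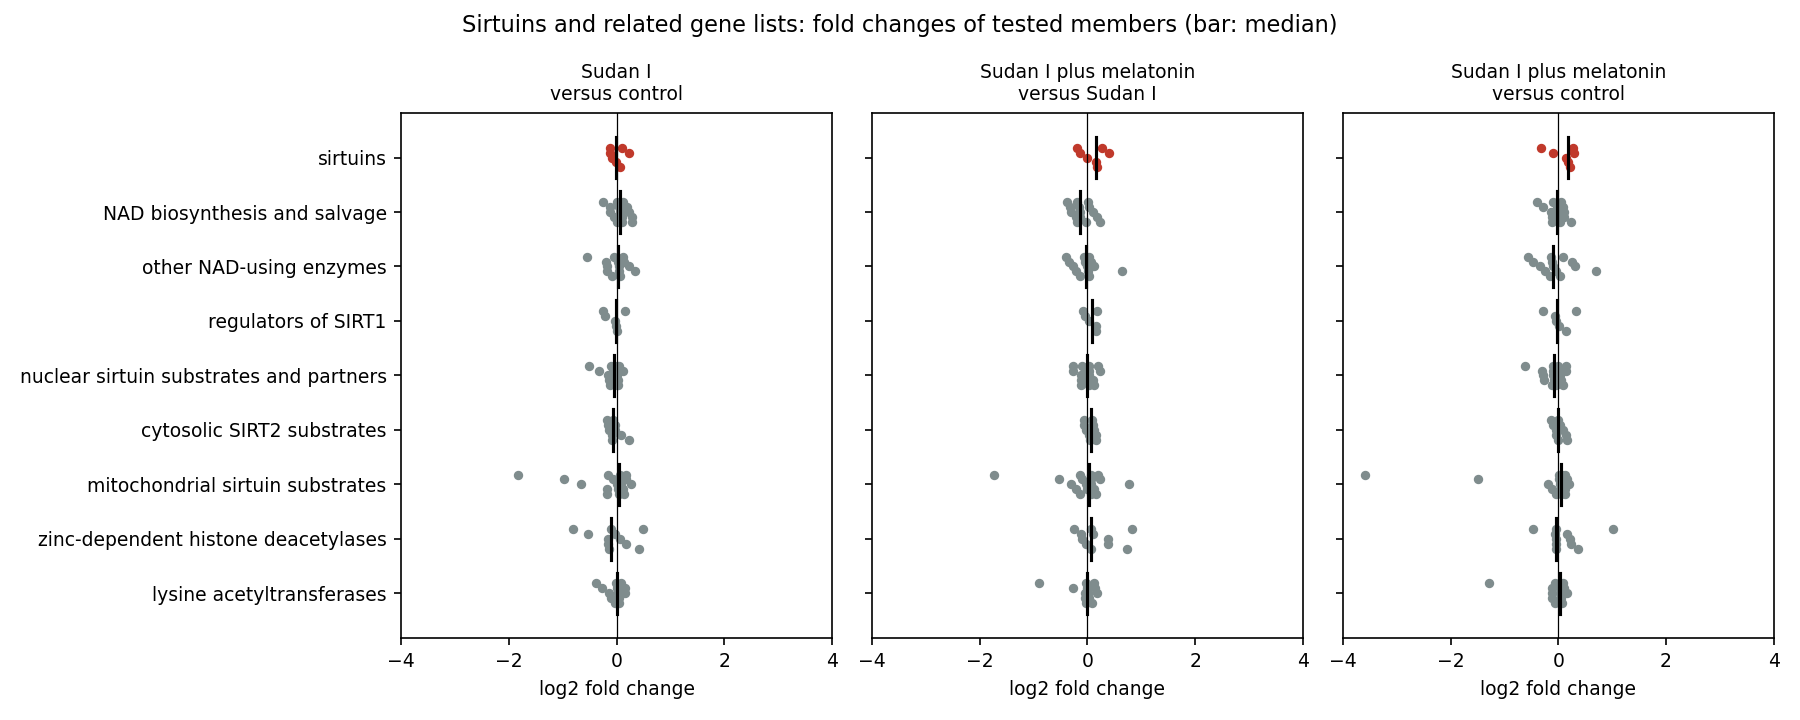
Log2 fold changes (x axis) of tested genes in the 3 comparisons for the sirtuins (red) and 8 related lists (grey); each point is a gene and each bar the median of its list. Sirtuin points lie between -0.32 and 0.41, and the lowest point is the low-count mitochondrial substrate Cps1 (-3.58 in melatonin versus control).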

How the data were processed

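The deposited table held raw read counts per gene symbol for 6 mouse oocyte libraries (2 per group). The labels name an Illumina library protocol; no aligner, counter, strand setting or genome build is given in the sources used here. In 27 rows, with 0.256% of the counts, a date stood in place of a symbol; they stayed in the fit unnamed.

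The software was edgeR 4.0.16, DESeq2 1.42.0 and limma 3.58.1 under R 4.3.3. Genes passing filterByExpr (minimum count 10) were scaled by TMM and entered 1 edgeR quasi-likelihood fit of all libraries (3 residual degrees of freedom, common biological coefficient of variation 0.167). A run on counts simulated from the means and dispersions of this fit required only that median fold changes be recovered. It set no requirement on false calls or power, and changes as small as those of the sirtuins were not simulated. Calls needed a Benjamini-Hochberg adjusted p under 0.05 over all 14124 tested genes. An exact permutation test of 2 against 2 cannot give a p under 0.333, so none was used. Alternatives were another scaling, no filter, DESeq2, limma-voom, pairwise fits, a replicate block, leaving out each library, and an added length correction (95.9% of tested genes had a length). Fold changes are log2, each with its standard error (SE); SD is over libraries. Intervals on fold changes are 95%.

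Named were all sirtuins, up to 3 members per list with the smallest p, 15 genes picked whatever their values, the closest genes by correlation, and neighbours within 1 kb. Genes of these sets that the table lacks were not analysed here. A gene that the rule names among the mitochondrial substrates is not reported here. Members and lists were chosen with earlier results of these data known.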

Additional observations from a re-analysis of the deposited data

How the results depend on the processing

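No sirtuin was called in any comparison, or over the 3 groups together, under any of the 14 alternatives (13 without the pairwise fits, which cannot test 3 groups). Of 294 recomputed fold changes 282 kept their sign. In the 12 others, Sirt5 in melatonin versus Sudan I was 0.0164 after the length correction, and the rest came from leaving out 1 library. Those ranges were -0.0406 to 0.15 (Sirt2), -0.36 to 0.0865 (Sirt3), -0.0204 to 0.24 (Sirt4) and -0.15 to 0.11 (Sirt7) in Sudan I versus control, -0.0564 to 0.036 (Sirt5) and -0.10 to 0.39 (Sirt7) in melatonin versus Sudan I, and -0.00633 to 0.34 (Sirt6) and -0.12 to 0.37 (Sirt7) in melatonin versus control.

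Counts of genes called over the whole table in the 3 comparisons were 88, 67 and 93 with no filter, and 11, 9 and 12 with DESeq2; the cause was not tested. Leaving out 1 library gave 1 to 4, 0 to 1 and 1 to 3. The replicate block gave 1, 0 and 1, and 0 sirtuins. Libraries with the same number in their titles deviated together with r of 0.0531, 0.0692 and -0.0625 across 14124 genes, so these numbers were not taken as pairs. The column headers hold codes with other numbers for some libraries, and pairing by those codes was not examined. The order of levels per kb depended on the length used. Sirt3 had the fewest counts, 79 to 124 per library, and its interval allowed changes of up to 2.13-fold between the exposed groups. A p that misses the threshold does not show that levels were equal.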

Other observations

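Named after their values were seen, the ADP-ribosyltransferase genes Parp12 and Tiparp averaged 788.3 CPM ± 56.9 and 768.8 CPM ± 99.4 (SD, n = 6), and the glucose-6-phosphate dehydrogenase gene G6pdx, a SIRT2 substrate, 781.4 ± 72.9.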
